A study of Danio rerio with 15 samples.

Results

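Transcripts of the light-response machinery of rods and cones were followed in sorted zebrafish Müller glia over the first hours after a light lesion of the retina. The genes were rho, gnat1 and gngt1 of rods, and opn1sw2 and gnat2 of cones, taken as every probe set whose gene symbol in the authors' deposited table is, now or formerly, one of these names. Of the 2331 genes that table names, these 5 have 7 probe sets, among 15502 on the array that are not Affymetrix controls. There are 4 for the rod genes (rho Dr.354.1.S1_at, gngt1 Dr.9835.1.S1_at, gnat1 Dr.9899.1.S1_at and gnat1 Dr.9899.1.S2_at) and 3 for the cone genes (opn1sw2 Dr.8097.1.S1_at, gnat2 Dr.9881.1.S1_at and gnat2 Dr.9881.2.A1_at). The probe sets of a gene with more than 1 are called gnat1 S1, gnat1 S2, gnat2 S1 and gnat2 A1 below. Probe sets of the same gene were read on the same arrays and are not independent.

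Fish of the line Tg(gfap:GFP)mi2002, 5 to 6 months old, carry GFP under the gfap promoter, which is active in Müller glia, the radial glia that regenerate neurons in this species. GFP-positive cells were sorted by flow cytometry from dissociated retinas taken 8, 16, 24 and 36 hours post-lesion (hpl). The 0 hpl controls were fish of the same line that received no light treatment, so lesion and elapsed time move together and no untreated fish were sampled at the later times. There were 3 biological replicates for each of the 5 times, hence 15 arrays, and the labels do not say how many fish made a replicate. The values are log2 expression values made by RMA, and a fold below is the linear equivalent of a log2 difference.

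In a rod, light isomerises the chromophore of rhodopsin, which activates the G protein transducin; its alpha subunit then releases a phosphodiesterase that breaks down cyclic GMP and lets the cation channels of the outer segment close. Cones run the same cascade with their own opsins and their own paralogues of most components. Müller glia are not known for using this cascade; they recycle the chromophore of cones and take up debris of dying photoreceptors, and intense light kills rods and cones in this species.

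The sorted cells carried Müller glia markers, and arrays of the same time were alike. They correlated at 0.973 to 0.991 over all probe sets, and the medians of all arrays lay between 4.41 and 4.67. Among the 10 named genes of a Müller glia list, glula, glutamine synthetase, stood at 11.75 ± 0.05 (SD, n = 3) at 0 hpl and rlbp1a, a retinal-binding protein of the visual cycle, at 11.33 ± 0.07; gfap itself is not among the named probe sets. Over the course 8 of these 10 fell and 2 rose at every time against 0 hpl. Over all probe sets 26.5%, 40.3%, 30.5% and 46.6% were called in order of time. The 10 carry a name only because each changed at least 2-fold at some time on these same arrays, so their count is not a measure of the whole list. The median change of all probe sets from 0 hpl was between -0.14 and -0.10 on the log2 scale at the 4 later times. The 18 spiked hybridisation-control probe sets stood 0.29 to 0.51 lower after the lesion in the deposited values, the differences being -0.29, -0.38, -0.31 and -0.51 in order of time. Scaling the arrays on those controls moved the median change of all probe sets to 0.19, 0.25, 0.20 and 0.38 and the share of rises among called probe sets from 45.3%, 45.6%, 53.4% and 42.8% to 87.4%, 86.2%, 81.9% and 88.2%; median centring gave 66.3%, 60.2%, 60.5% and 52.6%. Each change below is therefore relative to the deposited scaling.

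All 3 cone probe sets had fallen by 8 hpl and stayed low to 36 hpl. At 8 hpl none of the 4 rod probe sets had fallen and gngt1 had risen 2.70-fold; between 8 and 16 hpl all 4 fell, and at 24 and 36 hpl all 7 probe sets stood below 0 hpl. In sorted bulk RNA, fewer cells that hold a transcript and less of it per cell cannot be told apart.

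**Figure D1:**
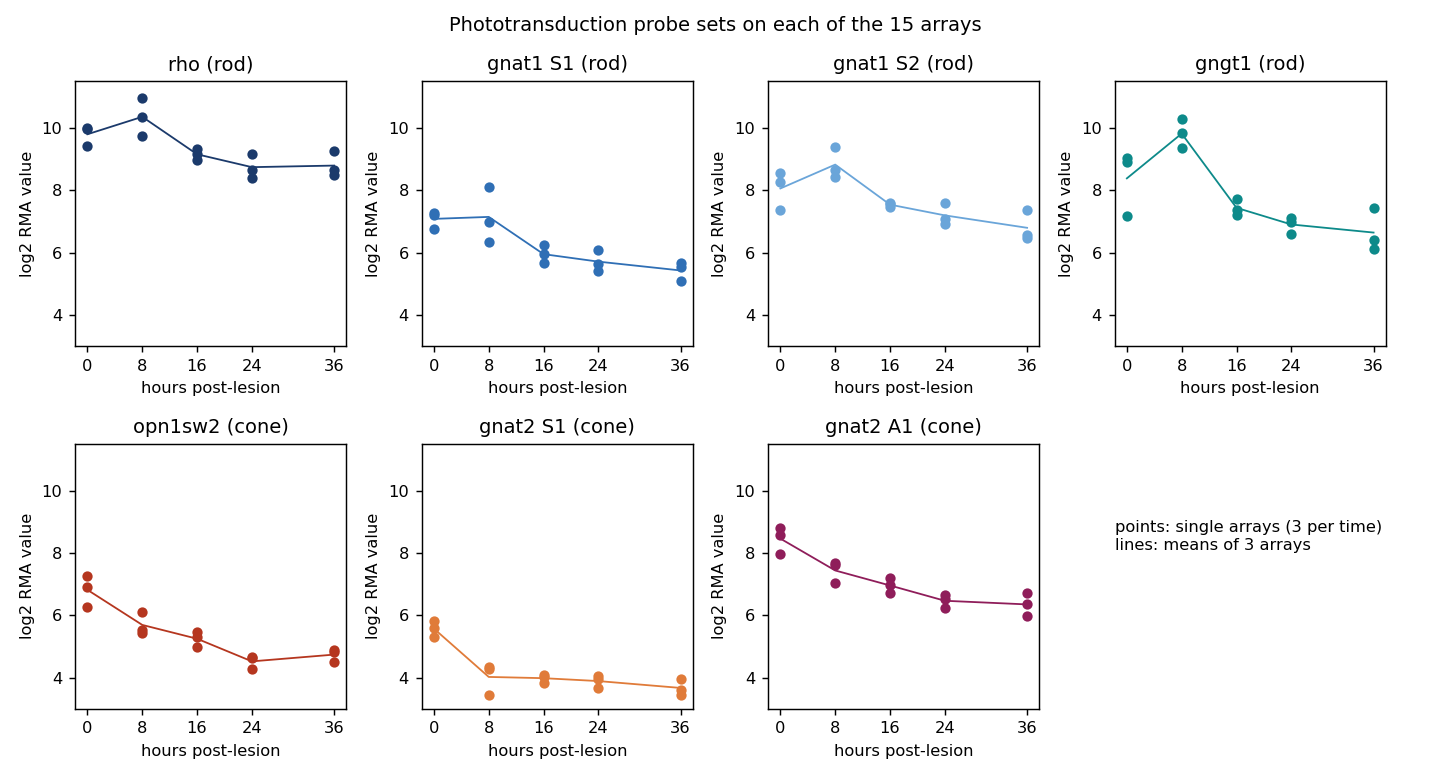
Log2 RMA value of each of the 7 phototransduction probe sets (vertical axis) against hours post-lesion (horizontal axis); points are single arrays, 3 per time, and lines join the means. The gngt1 points at 8 hpl lie between 9.35 and 10.27, above every 0 hpl array, while the opn1sw2 points at 8 hpl lie between 5.43 and 6.10, below every 0 hpl array.

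Rhodopsin, encoded by rho, is the visual pigment of rods. Its log2 values were 9.97, 9.99 and 9.42 on the 3 arrays at 0 hpl, 10.35, 10.96 and 9.75 at 8 hpl, and 9.33, 8.96 and 9.16 at 16 hpl. At 24 hpl they were 8.66, 9.17 and 8.39, and at 36 hpl 8.64, 8.48 and 9.24. The arrays at 8 hpl overlapped those at 0 hpl, and every array from 16 hpl on lay below every array at 0 and 8 hpl. The change from 0 to 8 hpl was 0.56 (SE 0.29, limma adjusted p = 0.156), which did not pass the threshold of an adjusted p under 0.05. From 8 to 16 hpl rho fell 2.3-fold, by 1.20 on the log2 scale (SE 0.29, limma adjusted p = 0.016). Against 0 hpl the change was -0.64 at 16 hpl (limma adjusted p = 0.0835, not called), -1.06 at 24 hpl (0.00991) and -1.0 at 36 hpl (0.00963, 2.01-fold lower).

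The gene gnat1 encodes the alpha subunit of rod transducin, which carries the signal from rhodopsin to the phosphodiesterase. The gnat1 S2 values were 8.55, 8.25 and 7.36 at 0 hpl, 8.64, 9.39 and 8.43 at 8 hpl, and 7.56, 7.46 and 7.58 at 16 hpl, then 6.92, 7.57 and 7.08 at 24 hpl and 6.58, 6.45 and 7.35 at 36 hpl. The third array at 0 hpl was the low one of its group, and the arrays at 8, 16 and 24 hpl overlapped the 0 hpl range, whereas those at 36 hpl lay just below it. The gnat1 S1 values were 7.22, 7.28 and 6.74 at 0 hpl, 6.99, 8.12 and 6.32 at 8 hpl and 6.24, 5.95 and 5.65 at 16 hpl, then 5.41, 6.07 and 5.64 at 24 hpl and 5.53, 5.09 and 5.66 at 36 hpl. Here the 8 hpl arrays spread on both sides of the 0 hpl arrays, and all arrays from 16 hpl on lay below both.

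At 8 hpl the probe sets of gnat1 changed by 0.06 (gnat1 S1, SE 0.34, limma adjusted p = 0.906) and 0.76 (gnat1 S2, SE 0.31, 0.0792), neither past the threshold. Between 8 and 16 hpl gnat1 S1 fell by 1.19 (limma adjusted p = 0.038) and gnat1 S2 fell by 1.28 (0.0173). Against 0 hpl gnat1 S1 was lower at 16 hpl (-1.13, limma adjusted p = 0.0149), at 24 hpl (-1.37, 0.00534) and at 36 hpl (-1.65, 0.000977, 3.15-fold lower). The other probe set, gnat1 S2, passed at 24 hpl (-0.86, limma adjusted p = 0.0456) with overlapping arrays, and at 36 hpl (-1.26, 0.0038, 2.40-fold lower), but not at 16 hpl (-0.52, 0.191).

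The gene gngt1 encodes the gamma subunit of rod transducin, which anchors the complex to the disc membrane. It read 9.04, 8.92 and 7.18 at 0 hpl, 9.35, 10.27 and 9.83 at 8 hpl and 7.73, 7.21 and 7.37 at 16 hpl, then 6.60, 7.11 and 6.99 at 24 hpl and 6.39, 6.11 and 7.42 at 36 hpl. The third array at 0 hpl lay 1.20 below the mean of its group, every 8 hpl array lay above every array of the other times, and at 36 hpl the third array reached into the 0 hpl range. The rise at 8 hpl was 1.44 on the log2 scale (SE 0.42, limma adjusted p = 0.0208), and the fall to 16 hpl was -2.38 (SE 0.42, limma adjusted p = 0.00247, 5.20-fold). Against 0 hpl gngt1 stood at -0.94 at 16 hpl (limma adjusted p = 0.0828, not called), -1.48 at 24 hpl (0.0131) and -1.74 at 36 hpl (0.00329, 3.34-fold lower).

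The rise of gngt1 at 8 hpl, the one called rise of a rod probe set there, did not hold under every setting. In a fit on the 0 and 8 hpl arrays alone the change was the same but not called (limma adjusted p = 0.068), and its adjusted p is above 0.01. Without the third 0 hpl array it was 0.84 (limma adjusted p = 0.0862), and without the second 8 hpl array 1.21 (0.0738), so the call was lost in both. Over all 15 single-array omissions the change stayed between 0.84 and 1.76. The direction of gnat1 S1 at 8 hpl also turned, to -0.11 without the third 0 hpl array and -0.42 without the second 8 hpl array, neither called. All 4 rod probe sets lay below their group mean on the third 0 hpl array, by 0.34 to 1.20, and above it on the second 8 hpl array, by 0.45 to 0.97.

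Among the cone genes, opn1sw2 encodes the blue-sensitive cone opsin. Its values were 6.91, 7.26 and 6.27 at 0 hpl, 6.10, 5.54 and 5.43 at 8 hpl and 5.46, 4.99 and 5.29 at 16 hpl, then 4.63, 4.27 and 4.66 at 24 hpl and 4.83, 4.50 and 4.88 at 36 hpl. No array after the lesion reached the lowest 0 hpl array. It fell 2.18-fold at 8 hpl (-1.12, SE 0.24, limma adjusted p = 0.00295), and stood at -1.57 at 16 hpl (9.31e-05), -2.29 at 24 hpl (1.89e-06) and -2.08 at 36 hpl (4.73e-06). Its 24 hpl mean, 4.52 ± 0.22 (SD, n = 3), lay below the mean array median at 0 hpl of 4.63; RMA makes no detection call, and a level above background is not shown there.

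The gene gnat2 encodes the alpha subunit of cone transducin. The gnat2 A1 values were 8.59, 8.81 and 7.97 at 0 hpl, 7.67, 7.62 and 7.02 at 8 hpl and 6.71, 6.96 and 7.20 at 16 hpl, then 6.51, 6.24 and 6.64 at 24 hpl and 5.98, 6.35 and 6.71 at 36 hpl. The gnat2 S1 values were 5.30, 5.60 and 5.81 at 0 hpl, 4.33, 4.29 and 3.45 at 8 hpl and 4.02, 4.1 and 3.83 at 16 hpl, then 3.66, 3.94 and 4.06 at 24 hpl and 3.59, 3.45 and 3.97 at 36 hpl. In both probe sets every array after the lesion lay below every 0 hpl array. Of all probe sets 23.2%, 31.9%, 23.0% and 29.9% were lower than at 0 hpl without overlap, in order of time. The third 0 hpl array, low in the rod genes, was also the lowest of its group for opn1sw2 and gnat2 A1, but the highest for gnat2 S1.

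At 8 hpl gnat2 A1 fell 2.03-fold (-1.02, SE 0.24, limma adjusted p = 0.00634), and it reached -1.50 at 16 hpl (0.000165), -1.99 at 24 hpl (9.9e-06) and -2.11 at 36 hpl (4.94e-06, 4.32-fold lower). The change of gnat2 S1 was already -1.55 at 8 hpl (SE 0.22, limma adjusted p = 0.000119) and moved little after that, to -1.59 at 16 hpl (4.3e-05), -1.68 at 24 hpl (2.28e-05) and then -1.90 at 36 hpl (5.83e-06). The gnat2 S1 means after the lesion, 4.02 at 8 hpl and 3.67 at 36 hpl, lay below the mean 0 hpl array median, so these log2 changes are given with no fold. The means of gnat2 A1 went on declining to 36 hpl, but no later step of either probe set passed the test.

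**Figure D2:**
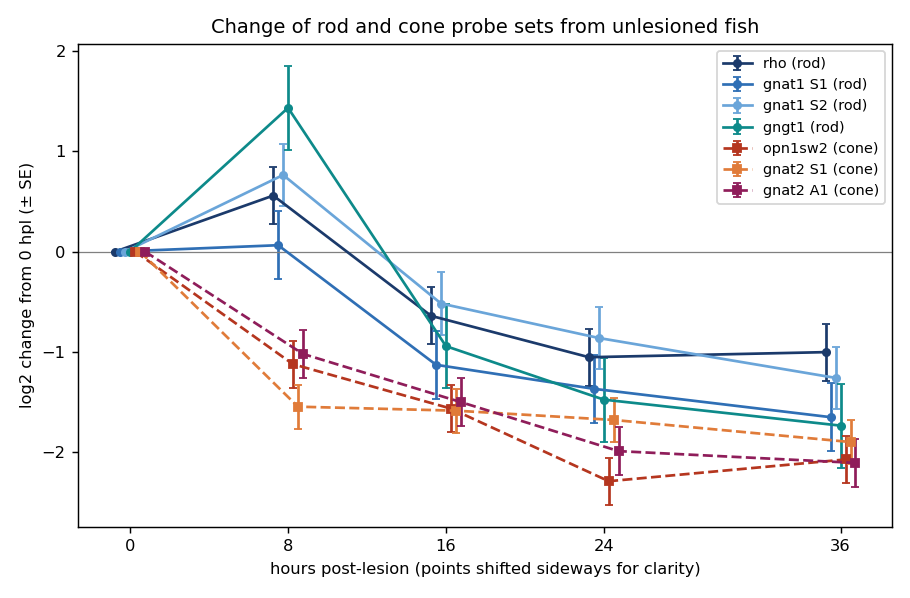
Log2 change from 0 hpl (vertical axis, with the SE of the limma fit as bars) against hours post-lesion (horizontal axis, points shifted sideways) for the 4 rod probe sets (solid lines, circles) and the 3 cone probe sets (dashed lines, squares). At 8 hpl the rod points lie between 0.06 and 1.44 and the cone points between -1.55 and -1.02.

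Counted against the array as a whole, 1 of the 7 probe sets rose and 3 fell at 8 hpl, so that 4 were called, where 26.5% of all 15502 probe sets were called and 14.5% fell. At 16 hpl 4 of 7 had fallen, the 3 cone probe sets and gnat1 S1, against 21.9% of all probe sets. By 24 hpl 7 of 7 had fallen, against 14.2%, and the same 7 of 7 at 36 hpl, against 26.6%. A moderated F test of any change from 0 hpl called all 7, and 46.0% of the array. Single arrays also decided later calls. At 24 hpl the call of rho was lost without the third 24 hpl array (-0.88, limma adjusted p = 0.0581), that of gngt1 without the first or the second 0 hpl array or the first 24 hpl array (adjusted p up to 0.0723), and that of gnat1 S2 in 8 of the 15 omissions. At 16 hpl gnat1 S1 was not called without the third 16 hpl array (-0.98, limma adjusted p = 0.0628), whereas all 7 were called without the third 0 hpl array. At 8 hpl rho was called as a rise without the third 8 hpl array (0.86, limma adjusted p = 0.038) and gnat1 S2 without the first 0 hpl array (1.01, 0.0439). Scaling on the hybridisation controls made rho and gnat1 S2 called rises at 8 hpl beside gngt1, and ended the call of gnat2 A1 there (-0.73, limma adjusted p = 0.0507). Under that scaling 3 of 7 fell at 16 hpl, 5 of 7 at 24 hpl and 6 of 7 at 36 hpl. The calls lost were gnat1 S1 at 16 hpl (-0.75, limma adjusted p = 0.11), rho and gnat1 S2 at 24 hpl (-0.74, 0.0619, and -0.55, 0.193) and rho at 36 hpl (-0.49, 0.174). The naming table bears on the counts: each of its 3164 probe sets changed at least 2-fold at some time on these same arrays, so a phototransduction probe set that did not change that much carries no name here.

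From 8 to 16 hpl all 4 rod probe sets fell in the fit on all 15 arrays, with no array at 16 hpl as high as any array of the same probe set at 8 hpl, while 3.12% of all probe sets were called as falls and 10.0% were lower with no overlap. The cone probe sets changed by -0.44 (opn1sw2, SE 0.24, limma adjusted p = 0.328), -0.04 (gnat2 S1, 0.958) and -0.48 (gnat2 A1, 0.29), and none was called; with array weights gnat2 A1 was called too (-0.62, limma adjusted p = 0.0456). Without the second 8 hpl array or without the second 16 hpl array gngt1 alone stayed called (-2.15, limma adjusted p = 0.0136, and -2.27, 0.0139), and without the first 16 hpl array rho and gngt1, 2 probe sets, did. The call of gnat1 S1 was lost in 6 of the 15 omissions, and also when scaled on the hybridisation controls (-1.10, limma adjusted p = 0.0653) and in a fit on the 8 and 16 hpl arrays alone (0.138). Without the second 8 hpl array the other falls were -0.90 for rho (limma adjusted p = 0.0717), -0.71 for gnat1 S1 (0.147) and -1.0 for gnat1 S2 (0.0801).

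In the fit without array weights no later step of the 7 probe sets was called. From 16 to 24 hpl the 7 changes lay between -0.73 (opn1sw2, limma adjusted p = 0.239) and -0.09 (gnat2 S1, 0.927), and none was called, as for all but 0.561% of the array. Still, 3 of the 7 (gngt1, opn1sw2 and gnat2 A1) were lower with no overlap, as were 8.96% of all probe sets. With array weights opn1sw2 was called (-0.72, limma adjusted p = 0.0431). From 24 to 36 hpl the 7 changes lay between -0.40 (gnat1 S2, limma adjusted p = 0.505) and 0.22 (opn1sw2, 0.651), again with none called, where 5.14% of the array was. The highest mean was at 8 hpl for all 4 rod probe sets and at 0 hpl for all 3 cone probe sets. The lowest was at 36 hpl for gnat1 S1, gnat1 S2, gngt1, gnat2 S1 and gnat2 A1, and at 24 hpl for rho and opn1sw2, whose 24 and 36 hpl means did not differ beyond their spread.

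**Figure D3:**
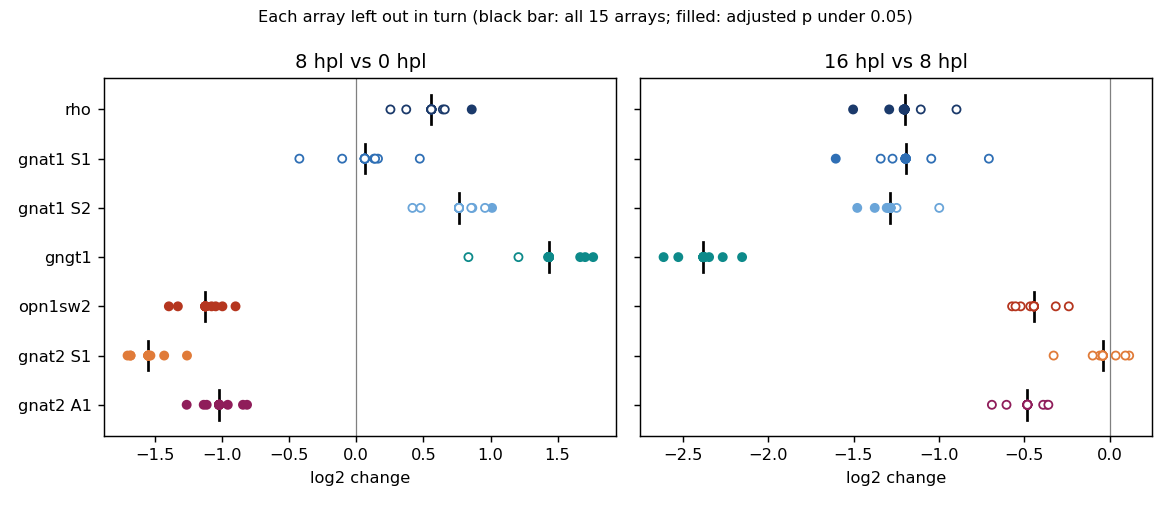
Log2 change of each phototransduction probe set when each of the 15 arrays is left out in turn (points, filled where the adjusted p is under 0.05) and with all arrays (black bars), for 8 hpl against 0 hpl (left) and 16 hpl against 8 hpl (right). All points of the 3 cone probe sets are filled on the left, and on the right the gngt1 points are filled from -2.61 to -2.15.

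The rod and cone members can also be set against each other within an array, which removes any shift that an array gives to all its probe sets. For each pair of like role, opsin with opsin and transducin alpha with transducin alpha, the rod value minus the cone value was expressed relative to its 0 hpl mean; there were 5 pairs, and 25 comparisons in all. The difference rho minus opn1sw2 lay between -0.25 and 0.17 on the 0 hpl arrays, and rose to a mean of 1.68 ± 0.66 (SD, n = 3) at 8 hpl, where the lowest array was at 1.27. It was 0.93 ± 0.06 at 16 hpl, 1.24 ± 0.61 at 24 hpl and 1.07 ± 0.28 at 36 hpl, so the arrays after the lesion lay above all 0 hpl arrays at every time. The difference stayed above its 0 hpl range at 24 and 36 hpl, when both genes were called as lower than at 0 hpl. At 24 hpl the opn1sw2 mean of 4.52 lay below the mean 0 hpl array median of 4.63, so the size there is not read. At 36 hpl that mean was 4.74, close to the same median, with the lowest array at 4.50.

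For transducin, gnat1 S2 minus gnat2 A1 gained 1.79 ± 0.40 (SD, n = 3) at 8 hpl, 0.98 ± 0.25 at 16 hpl, 1.13 ± 0.53 at 24 hpl and 0.85 ± 0.30 at 36 hpl, above all 0 hpl arrays each time. With the other gnat1 probe set, gnat1 S1 minus gnat2 A1, the gain was 1.09 at 8 hpl and 0.62 at 24 hpl, each without overlap, and 0.37 at 16 hpl and 0.46 at 36 hpl with arrays that overlapped those at 0 hpl. The sizes of the pairs with gnat2 S1 after the lesion, and of rho minus opn1sw2 at 24 hpl, are not read, because those cone means lie below the mean 0 hpl array median and a level above background is not shown. All 5 pairs were above their 0 hpl arrays at 8 hpl (two-sided exact permutation p = 0.1 each, the smallest that 3 against 3 arrays allow). The transducin pairs reuse the same gnat1 and gnat2 probe sets on the same arrays, so the 5 are not independent. From 8 to 16 hpl the difference shrank by 0.76 for rho minus opn1sw2 and by 0.80 for gnat1 S2 minus gnat2 A1, each without overlap (exact permutation p = 0.1), and by 0.71 for gnat1 S1 minus gnat2 A1 with overlapping arrays (exact permutation p = 0.3). The smallest Benjamini-Hochberg value over the 25 comparisons was 0.147, so none passes a threshold of 0.05, which this number of arrays could not reach.

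**Figure D4:**
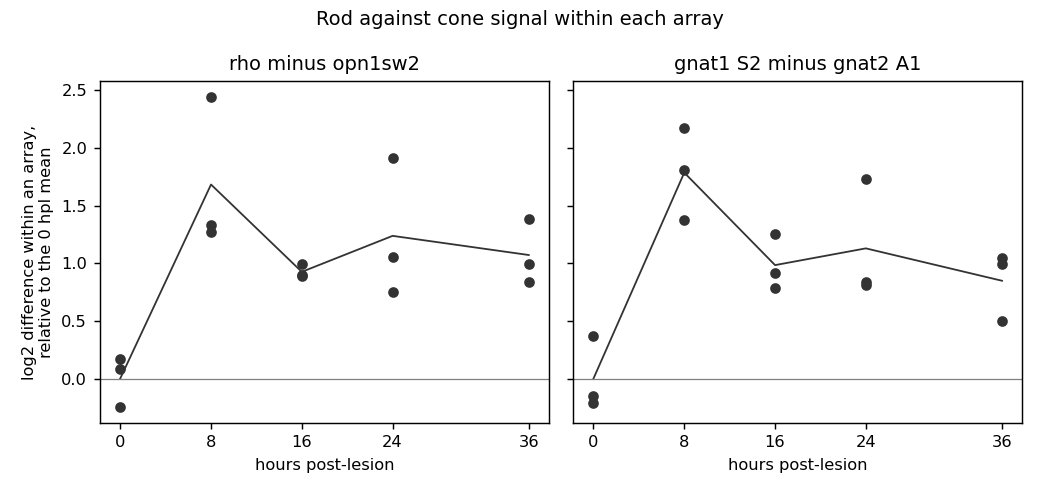
Rod value minus cone value within each array, in log2 units relative to the 0 hpl mean (vertical axis), against hours post-lesion (horizontal axis), for rho minus opn1sw2 (left) and gnat1 S2 minus gnat2 A1 (right); points are arrays, 3 per time, and lines join the means. The means peak at 8 hpl, at 1.68 and 1.79, and every later array lies above the 0 hpl arrays.

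A rod list of 45 genes had 11 named genes with 14 probe sets, and without rho, gnat1 and gngt1 8 genes with 10 probe sets remained. Of these 10, 0 rose and 2 fell at 8 hpl (median change -0.25, against -0.10 for all probe sets). At 16 hpl 1 rose and 5 fell (median -0.91), at 24 hpl 1 and 6 (-1.17) and at 36 hpl 1 and 8 (-1.19). The median of all probe sets was -0.14, -0.11 and -0.14 at 16, 24 and 36 hpl. The share of falls over the array was 14.5%, 21.9%, 14.2% and 26.6% in order of time. These 10 rod probe sets too carry a name only because of a 2-fold change on the same arrays. The falls at 8 hpl were 1 of the 3 probe sets of pdca (-0.86, limma adjusted p = 0.0199) and pdcb (-1.17, 0.0016), which encode phosducins, proteins that bind transducin beta-gamma. The values of gucy2f, a photoreceptor guanylate cyclase, were 0.56 at 8 hpl (limma adjusted p = 0.168) and -1.51 at 16 hpl (0.00084), and it fell by 2.07 between them (0.000595), which is the course of the rod members. The guanylate cyclase activator guca1b stood at 0.73 at 8 hpl (limma adjusted p = 0.226) and -1.13 at 36 hpl (0.0454). The rod phosphodiesterase subunit pde6a stood at -0.42 at 8 hpl (limma adjusted p = 0.21) and fell at 16 hpl (-1.13, 0.00192).

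The probe set that rose in the rod list was nr2e3, a nuclear receptor that directs rod identity. It was at -0.07 at 8 hpl (limma adjusted p = 0.856), and rose by 1.33 at 16 hpl (0.000619), 1.27 at 24 hpl (0.000975) and 1.01 at 36 hpl (0.00386). It was the opposite direction to the rod cascade genes named here at those times, other than guca1aa, a second cyclase activator, which stayed uncalled at 0.93, 1.15, 0.79 and 0.12 over the 4 times.

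The cone list gave falls only among its called probe sets. It held 40 genes, of which 11 were named with 12 probe sets. The 9 probe sets other than opn1sw2 and gnat2 had 4 falls at 8 hpl (median -0.82), 7 at 16 hpl (-1.28), 8 at 24 hpl (-1.50) and 6 at 36 hpl (-1.27), with 0 rises at any time. Over the array 14.5%, 21.9%, 14.2% and 26.6% fell in order of time. These probe sets too carry a name only because of a 2-fold change on the same arrays. The cone phosphodiesterase subunits pde6c and pde6hb fell at 8 hpl by 1.76 (limma adjusted p = 0.00927) and 1.19 (0.00169). The transducin beta subunit of cones, gnb3b, fell by 0.85 (limma adjusted p = 0.0163), and the retinoid receptor rxrga by 0.82 (0.00316). The green opsin opn1mw2 and the ultraviolet opsin opn1sw1 were called at 16 hpl (limma adjusted p = 0.00607 and 0.00862) but not at 8 hpl (0.418 and 0.352). Their means lay at 4.23 and 4.73 at 0 hpl and 2.90 and 3.82 at 16 hpl, below the mean 0 hpl array median of 4.63 other than opn1sw1 at 0 hpl, so a level above background is not shown and the size of their change is not read. Cone arrestin arr3a passed at 24 hpl alone (-1.04, limma adjusted p = 0.0165).

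Between 8 and 16 hpl 0 of the 12 cone probe sets were called, against 5 falls and 1 rise of the 14 rod probe sets. Over the array 3.12% fell and 5.48% rose at this step. The falls include all 4 probe sets of rho, gnat1 and gngt1. Without the members 1 of the 10 rod probe sets fell and 1 rose, and 0 of the 9 cone probe sets were called. Scaling on the hybridisation controls left 4 rises and 1 fall in the rod list at 8 hpl and 4 falls in the cone list; median centring left 2 rises and 2 falls, and 7 falls. The median of the 10 rod probe sets other than rho, gnat1 and gngt1 at 8 hpl turned to 0.05 under scaling on the controls, while that of the 9 cone probe sets was -0.53.

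Of 52 genes that rods and cones share, 5 were named with 6 probe sets, and at 8 hpl 2 rose and 2 fell. The rises were rbp3 (1.15, limma adjusted p = 0.0209), the retinoid carrier of the space between photoreceptors and pigment epithelium, and prom1b (1.08, 0.0328), a protein of membrane protrusions. Both falls were probe sets of the homeobox gene rx2 (-1.85, limma adjusted p = 4.2e-05, and -1.50, 7.93e-06), which is also expressed in Müller glia. Without the third 0 hpl array, and likewise without the second 8 hpl array, 0 of the 6 rose. The mean array median also bounds other values given here: after the lesion the means of rxrga, of 1 rx2 probe set, of the lens genes and of hbae3 lay below it, as did those of elovl4b from 16 hpl and rbp3 from 24 hpl. Between 8 and 16 hpl rbp3 fell by 1.83 (limma adjusted p = 0.00332) and elovl4b, an enzyme of very long fatty acid synthesis, fell by 1.62 (0.0138).

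**Figure D5:**
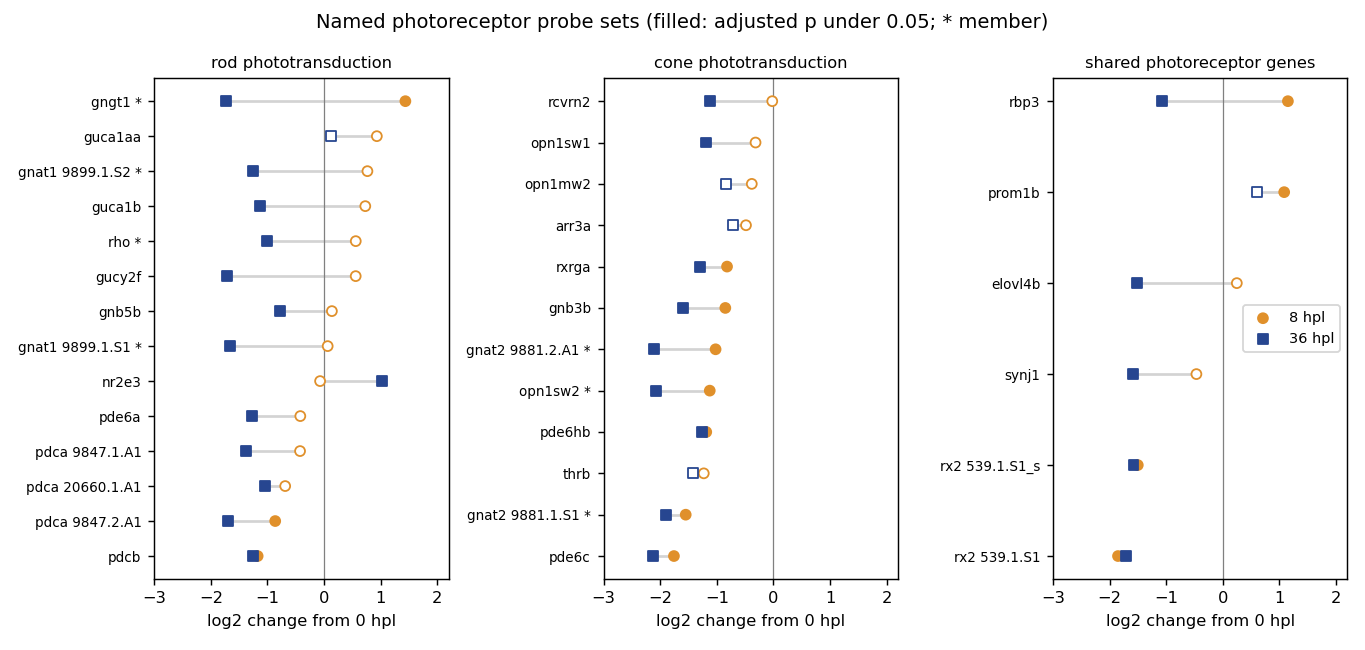
Log2 change from 0 hpl (horizontal axis) at 8 hpl (circles) and 36 hpl (squares) of every named probe set of the rod list (left), the cone list (middle) and the shared photoreceptor list (right); filled symbols have an adjusted p under 0.05, and a star marks rho, gnat1, gngt1, opn1sw2 and gnat2. In the rod panel 1 circle is filled to the right of zero, gngt1 at 1.44, and in the cone panel all circles lie at or left of -0.02.

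Some markers of other retinal neurons were highest at 8 hpl, as the probe sets of rho, gnat1 and gngt1 were, but others were not. The means of elavl3, of every sncgb probe set and of the dimmer slc6a1b probe set were highest at 0 hpl. Of 49 genes 7 were named, with 10 probe sets. At 8 hpl 4 of these rose, 1 fell and 5 were not called, where 26.5% of all probe sets were called. Their median change at 8 hpl was -0.05, against -0.10 for all probe sets. At 16 hpl 0 rose and 5 fell, where 18.4% of all probe sets rose and 21.9% fell. Between 8 and 16 hpl 5 fell, where 3.12% of all probe sets did. These 10 too carry a name only because of a 2-fold change on the same arrays. The synthetic enzyme of GABA gad1b rose by 1.18 at 8 hpl (limma adjusted p = 0.00653) and fell by 1.30 to 16 hpl (0.00885), and the GABA transporter slc6a1a rose by 1.06 (0.0382) and fell by 1.55 (0.0122). Outside the naming rule, vsx1 and gad2 were named after their values were seen. The bipolar cell factor vsx1 rose by 1.53 at 8 hpl (limma adjusted p = 0.00136) and fell by 1.41 to 16 hpl (0.00673). Its means at 0 and 16 hpl lay below the mean 0 hpl array median. The gene gad2 rose by 1.35 (limma adjusted p = 0.029) and fell by 1.65 (0.0238). With gad1b and slc6a1a these make up all 4 rises. Of the genes highest at 0 hpl only sncgb has values given, so the sizes shown lean towards rises. The ganglion cell synuclein sncgb did not rise: it stood at -0.85 at 8 hpl (limma adjusted p = 0.0485) and -2.77 at 36 hpl (3.17e-06) in its brightest probe set. Without the third 0 hpl array, or without the second 8 hpl array, 2 of the 10 rose at 8 hpl.

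Summed on the linear scale, the 10 neuron probe sets gave 2271 to 3235 at 0 hpl, 1754 to 3601 at 8 hpl, 976 to 1232 at 16 hpl, 533 to 919 at 24 hpl and 660 to 1021 at 36 hpl. The 14 rod probe sets gave 2000 to 3353, 2859 to 5625, 1450 to 1826, 1136 to 1584 and 967 to 1521 at the same times, and the 12 cone probe sets 1064 to 1590, 503 to 742, 455 to 538, 319 to 462 and 330 to 592. The sums of rods and of other neurons thus overlapped between 0 and 8 hpl and lay lower from 16 hpl on, while the sum of cones was lower from 8 hpl on. The rod sum includes rho, gnat1 and gngt1, with rho at a log2 mean of 9.79 at 0 hpl and 10.35 at 8 hpl. The cone sum includes opn1sw2 and gnat2, so neither sum is separate from the results of the members above. No marker was at 0, as RMA gives every probe set a value. The part of neurons carried into the sort in the course of the rod and cone genes was not tested.

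Few markers of cells outside the neural retina are named. The pigment epithelium gene rpe65a, 1 of 22 on its list, gave a sum of 133 to 246 at 0 hpl and 69.9 to 194 at 8 hpl over its 2 probe sets, with changes of -0.87 (limma adjusted p = 0.0506) and -0.58 (0.47), neither called. Of the 29 genes on the list drawn up for microglia and macrophages, tspan36 alone was named. It rose by 2.35 at 8 hpl (limma adjusted p = 2.06e-06) and had a sum of 23.6 to 32.9 at 0 hpl and 120 to 167 at 8 hpl. Whether tspan36 marks those cells here was not tested, so no content of microglia or macrophages is read from it. Of 19 red blood cell genes hbae3, a globin, and cahz, which Müller glia also express, were named. Both fell at 8 hpl (-0.82, limma adjusted p = 0.0112, and -0.62, 0.033), where 14.5% of the array fell. Their sum was 1269 to 1817 at 0 hpl and 783 to 1221 at 8 hpl. It was mostly cahz, whose log2 mean was 10.62 at 0 hpl, so the sum is not read as a content of blood cells. Of 26 lens genes cryba4 and cryaba were named, and both fell at 8 hpl (-1.57, limma adjusted p = 1.68e-05, and -0.87, 0.000825), with a sum of 69.4 to 87.1 at 0 hpl and 31.9 to 34.1 at 8 hpl. Their part in the rod and cone changes was not tested.

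The probe sets with the most similar course were looked up among the 1982 named ones, by the root mean square (RMS) difference of log2 values, each centred on its own mean, over the 15 arrays. For rho the nearest were gnat1 S2 (0.24), gnat1 S1 (0.30) and guca1b (0.33), where the median over all named probe sets was 1.06. For gnat1 S1 they were rho (0.30), guca1b (0.31) and pde6a (0.35), and for gnat1 S2 rho (0.24), guca1b (0.35) and rbp3 (0.35). For gngt1 they were rbp3 (0.44), gnat1 S2 (0.53) and gucy2f (0.57). Every rod probe set thus had genes of the rod or shared photoreceptor lists as its nearest.

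The cone probe sets lay among other genes. The nearest to opn1sw2 were pkib (0.26), gnat2 A1 (0.26) and rlbp1a (0.31), the Müller glia retinal-binding protein, which itself changed by -0.99 at 8 hpl and -1.77 at 36 hpl. For gnat2 A1 they were pkib (0.21), cntn5 (0.25) and nsg2 (0.25), and for gnat2 S1 mocos (0.18), atp1b3a (0.19) and sh3bgr (0.25). Of these atp1b3a, a sodium pump subunit, changed by -1.64 at 8 hpl and -1.65 at 36 hpl, and mocos, a molybdenum cofactor enzyme, by -1.40 and -2.01. The early and lasting fall of the cone members was thus a course that genes outside the photoreceptor lists also took on these arrays.

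In the authors' deposited table the fold changes of the 7 probe sets match the differences given here; for example the authors' deposited table lists gngt1 at 2.70 at 8 hpl and -3.34 at 36 hpl, where a negative sign marks a fall. The p-values in the authors' deposited table are all above 0.05 for these probe sets. The smallest over the times in the authors' deposited table, headed FDRCI pvalue, ran from 0.0948 for gnat2 S1 to 0.9965 for rho. The test behind that heading is not described there. The limma calls above test against no change and pool the spread over 15 arrays, so the p-values may not be of like kind. Why they differ was not tested.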

How the data were processed

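Log2 expression values of 15 Affymetrix zebrafish arrays were used as deposited; per the submitters' processing notes they were made with RMA, its implementation not given in the sources used here. RNA was linearly amplified from 20 ng of total RNA, per the labels, which could alter relative levels. RMA includes a quantile normalisation, which can remove a change common to most genes. The medians of the deposited arrays still ran from 4.41 to 4.67. A second deposited table gives the authors' own signed fold changes and p-values for 3164 probe sets and is the source of gene names (2511 with 1 symbol, 108 with several, 545 with none), updated with RefSeq symbols of GRCz12tu.

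The 115 control probe sets were left out. A model with 1 coefficient per time was fitted with limma 3.58.1 in R 4.3.3 to 15502 probe sets, tested beforehand on simulated data, and calls need an adjusted p (Benjamini-Hochberg, over all of them) under 0.05. Probe sets of a gene were not averaged. The number of arrays limits the precision. The authors' p-values and fold values were only copied. Permutation tests used SciPy 1.17.1.

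The genes, the marker lists and the rules were chosen with earlier results of these data known, and the within-array difference between rod and cone genes was added after the data were seen. Named were all members, any named gene of the photoreceptor lists, up to 4 genes with the highest mean of each other list, and the 3 nearest probe sets to each member, with clone and locus names left out. The neuron list is the exception: vsx1 and gad2 were added after their values were seen. The values of its other named genes elavl3 and slc6a1b are not given. Alternatives were repeated quantile normalisation, median centring, scaling on hybridisation controls, the dimmest 25% left out, eBayes with trend and robust settings, array weights, compared groups alone, a replicate block, an adjusted p under 0.01, a 2-fold minimum, the mean of a gene's probe sets, and each array left out.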

Additional observations from a re-analysis of the deposited data

Results flagged for a closer look

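In 4 probe sets the change from 0 hpl had opposite signs at 8 and 16 hpl, and the difference between the 2 changes passed the test. The change at 16 hpl minus the change at 8 hpl was -1.20 for rho (limma adjusted p = 0.016), -1.19 for gnat1 S1 (0.038), -1.28 for gnat1 S2 (0.0173) and -2.38 for gngt1 (0.00247). All of them are rod genes; in the cone probe sets the changes at both times were falls. Against 0 hpl only gngt1 of these 4 was called at 8 hpl, and only gnat1 S1 at 16 hpl, so most of the opposite signs rest on uncalled changes. The 8 hpl change of gnat1 S1 was 0.06 (SE 0.34) and turned negative in some settings. The difference tested is the step from 8 to 16 hpl given above, in which gngt1 alone stayed called without the second 8 hpl array. With 3 arrays per group no single array was tested as an outlier.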

How the results depend on the processing

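Among single probe-set changes, 693 kept their direction and their side of the threshold when an array was left out, 26 lost and 6 gained a call, and 10 changed sign; under the other alternatives the numbers were 482, 19, 13 and 4. Every change of sign was in a change that was not called. With arrays left out, gnat1 S1 from 0 to 8 hpl ranged from -0.42 to 0.47, gnat2 S1 from -0.33 to 0.12 between 8 and 16 hpl and from -0.18 to 0.019 between 16 and 24 hpl, and between 24 and 36 hpl gnat2 A1 from -0.30 to 0.066, gngt1 from -0.65 to 0.0058 and rho from -0.18 to 0.27. Repeated quantile normalisation gave -0.062 for gnat1 S1 from 0 to 8 hpl and 0.017 for gnat2 S1 from 8 to 16 hpl, and scaling on hybridisation controls 0.0498 for the latter and 0.085 for gnat2 A1 from 24 to 36 hpl. The causes were not tested.

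Of the 7 probe sets, those called numbered 3 to 5 at 8 hpl, 3 to 7 at 16 hpl, 5 to 7 at 24 hpl and 7 to 7 at 36 hpl against 0 hpl when arrays were left out, and 1 to 4 from 8 to 16 hpl, 0 to 0 from 16 to 24 hpl. The 7 at 16 hpl came without the third 0 hpl array. An adjusted p under 0.01 left 1 from 8 to 16 hpl, and array weights gave 1 from 16 to 24 hpl. Scaled on hybridisation controls, rho (0.85, limma adjusted p = 0.0395), gnat1 S2 (1.06, 0.0143) and gngt1 (1.73, 0.00212) rose at 8 hpl, the fall of gnat2 A1 there was not called (-0.73, 0.0507), and the calls of gnat1 S1 at 16 hpl (-0.75, 0.11) and from 8 to 16 hpl (-1.10, 0.0653), of rho at 24 hpl (-0.74, 0.0619) and 36 hpl (-0.49, 0.174), and of gnat1 S2 at 24 hpl (-0.55, 0.193) were lost. Array weights added calls of gnat2 A1 from 8 to 16 hpl (-0.62, 0.0456), of rho and gnat1 S2 as rises at 8 hpl (0.82, 0.0332, and 0.90, 0.0336) and of rho and gngt1 at 16 hpl (-0.74, 0.0281, and -1.23, 0.011). The groups fitted alone lost gngt1 at 8 hpl (1.44, 0.068), gnat1 S2 at 24 hpl (-0.86, 0.0572) and gnat1 S1 from 8 to 16 hpl (-1.19, 0.138), and added rho at 16 hpl (-0.64, 0.0247).

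The labelled replicate numbers did not pair the arrays: 9 of 30 same-number pairs deviated together with r over 0.1, and 6 of 15 arrays matched an array of their own number best. With the replicate block the 7 probe sets gave 4, 4, 6 and 7 calls at the 4 times and 4 from 8 to 16 hpl, gnat1 S2 at 24 hpl being the call lost.

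Over the whole array, leaving out single arrays gave 2992 to 4201 calls at 8 hpl, 4899 to 6596 at 16 hpl, 3640 to 4976 at 24 hpl and 5787 to 7493 at 36 hpl against 0 hpl, 785 to 1458 from 8 to 16 hpl, 24 to 107 from 16 to 24 hpl and 345 to 916 from 24 to 36 hpl. All 15 arrays gave 4108, 6252, 4722, 7217, 1332, 87 and 797 in that order; a 2-fold minimum gave 1052, 1953, 1959, 2508, 377, 42 and 277. An adjusted p under 0.01 gave 1948 at 8 hpl, 3969 at 16 hpl, and 550, 24 and 309 for the later steps; array weights gave 2078, 545 and 1207 for those steps; compared groups alone gave 2354 at 8 hpl, 806 from 8 to 16 hpl and 142 from 16 to 24 hpl. From 16 to 24 hpl the replicate block gave 55 and scaling on the controls 32.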
